A study of Rattus norvegicus with 16 samples.

Results

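Collagen genes were measured in whole rat ovaries. A gene was taken as a collagen gene when its name on the array was Col, a number, the letter a and a number, and it was kept when at least 1 of its probes lay well above background on at least 3 arrays of a group. This held for 38 of the 44 collagen genes with a probe, out of 20227 genes tested in all, and the probe with the highest mean stood for a gene that had several. Of the 38 genes, 29 were well above background on all 16 arrays. The 6 genes that were left out are Col9a1, Col9a3, Col10a1, Col19a1, Col24a1 and Col28a1. Col9a3 was the nearest of them to being kept, with 8 arrays above background but no more than 2 in any group, and the genes kept with the fewest arrays above background were Col25a1 and Col6a4, each with 7 arrays and 3 of them in a single group.

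The ovaries came from females of the Sprague-Dawley stock Jcl:SD and were hybridised to single-colour arrays. Groups of 4 were wild-type (WT) vehicle, WT olaparib, BRCA1+/- vehicle and BRCA1+/- olaparib, the BRCA1+/- rats having a single intact Brca1 copy. Olaparib, an inhibitor of the poly(ADP-ribose) polymerases, was injected under the skin at 50 mg/kg each day over 14 days, starting at an age of 3 weeks, with ovaries excised 24 h after the last dose. How the BRCA1 allele was altered, the vehicle and the handling of the vehicle animals are not given in the sources used here.

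Collagens are proteins of the extracellular matrix in which 3 chains wind around each other, which needs a glycine at regular intervals along each chain. Types I and III form the fibrils of the ovarian stroma, theca and tunica albuginea, type IV forms the sheet of the basement membranes around follicles and vessels, and type VI forms fine beaded filaments between them. Stromal and theca fibroblasts are known as the main source of the fibrillar chains, while endothelial and granulosa cells also make type IV chains.

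The glycine rule is visible in the array's own probes. A probe of 60 bases was searched for a GGN codon repeated every 9 bases without a break, and 6 of the 80 collagen probes carried that pattern (7.5%), against 8 of all 45598 non-control probes (0.0175%). The following 3 are shown because they report on genes described below, with each glycine codon in capitals and rn4 positions as given in the array files.
Col20a1, chr3:170132592-170133066, plus strand: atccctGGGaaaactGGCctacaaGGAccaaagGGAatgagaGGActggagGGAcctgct
Col4a5, chrX:36935063-36935551, minus strand: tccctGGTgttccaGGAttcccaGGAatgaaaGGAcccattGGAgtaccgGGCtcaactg
Col4a6, chrX:37482127-37482186, plus strand: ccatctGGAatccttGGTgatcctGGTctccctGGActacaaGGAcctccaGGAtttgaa
All 3 carry the glycine spacing of a triple helix, and the first 2 span more than their own length on the genome, as a probe across an exon junction does. Across the 16 arrays the Col20a1 probe followed the probe used for that gene closely (r = 0.97). The Col4a5 and Col4a6 probes shown did not follow theirs closely (r = 0.24 and r = 0.26).

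Values below are log2 signals with the 75th percentile of each array at 0, so a negative level is a dim probe and not a negative amount. Levels of different genes come from different probes and are not compared. The arrays filled 2 slides, with replicates 1 and 2 of every group on slide 1 and replicates 3 and 4 on slide 2. Each group lay in its own column of both slides, so group and column cannot be told apart. Brca1 lay between -1.44 and 0.17 over the 16 arrays, and its BRCA1+/- minus WT difference with vehicle was -0.67 (95% interval -1.26 to -0.09, limma adjusted p = 0.862). Whether that probe lies in the altered part of the gene is not known, so it does not check the labels. The 75th percentile of the processed signal ran from 202 to 566 intensity units between arrays, and between 55.5% and 60.7% of probes exceeded background clearly.

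No collagen gene passed a Benjamini-Hochberg adjusted p of 0.05 in any of the 7 comparisons made with limma, and the share over all genes tested was also 0% in each. The type I and III genes, which make up the fibrils, differed between groups by between -0.14 and 0.30 on the log2 scale over 12 differences, with 95% intervals that reached from -0.85 to 1.11. The type IV genes Col4a1 and Col4a2 differed by between -0.41 and 0.22, with intervals from -1.51 to 1.28. Each interval gives the differences that its estimate, from 4 samples per group, leaves possible at the 95% level. The ranges printed here are the outermost ends over all the intervals, and each single interval was narrower. In whole ovaries, fewer cells of a type and less RNA per cell cannot be told apart. The labels do not state that each sample came from a separate animal, so the spread between samples may be partly technical. Of the ovarian markers, all 7 granulosa genes were measured, at mean levels of 2.99 to 4.06, and 7 of 8 oocyte genes, at -1.16 to 0.79.

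Col1a1 encodes the chain of type I collagen that is present more than once in each molecule. Its log2 signals were 6.34, 5.18, 5.11 and 5.83 in WT vehicle replicates 1 to 4, and 5.79, 6.64, 5.1 and 4.78 in WT olaparib replicates 1 to 4. In BRCA1+/- vehicle they were 5.80, 5.25, 5.92 and 5.29, and in BRCA1+/- olaparib 6.35, 5.62, 5.67 and 5.84. The highest and the lowest of the 16 arrays were both in WT olaparib, replicates 2 and 4, and all 4 groups overlapped. The olaparib difference of Col1a1 was -0.04 (95% interval -0.84 to 0.77) in WT and 0.30 (-0.50 to 1.11) in BRCA1+/-.

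Col1a2 encodes the other chain of type I collagen. It had log2 signals of 6.43, 6.01, 6.18 and 6.62 in WT vehicle and of 6.39, 6.40, 6.20 and 6.05 in WT olaparib. The BRCA1+/- vehicle arrays gave 6.30, 6.03, 7.04 and 6.54, and the BRCA1+/- olaparib arrays 6.54, 6.13, 6.64 and 6.59. Replicate 3 of BRCA1+/- vehicle stood highest and the groups overlapped. This gene had the narrowest interval of the 5 core genes, with olaparib differences of -0.05 (-0.51 to 0.42) in WT and 0.00 (-0.47 to 0.46) in BRCA1+/-.

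Col3a1 encodes the single chain of type III collagen, which mixes with type I in soft tissues. Its log2 signals were 6.69, 5.98, 5.86 and 6.35 in WT vehicle, 6.67, 7.10, 5.37 and 6.08 in WT olaparib, 6.69, 5.70, 6.25 and 6.35 in BRCA1+/- vehicle, and 6.43, 6.11, 5.88 and 6.23 in BRCA1+/- olaparib. WT olaparib again held both extremes, replicates 2 and 3. The SD within that group was 0.75, against 0.23 to 0.41 in the other groups.

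**Figure D1:**
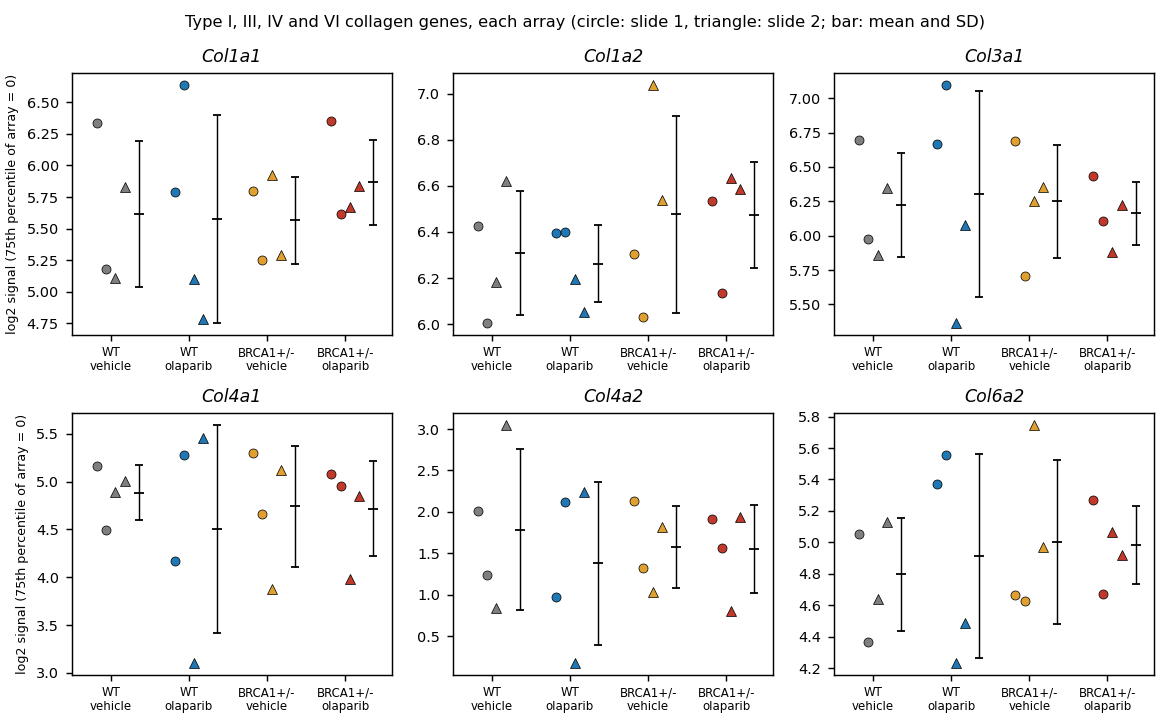
Log2 signal of 6 collagen genes on each array, by group. Circles are arrays of slide 1 and triangles arrays of slide 2, and the bar to the right of each group is its mean and SD (n = 4). The 4 groups overlap in every panel, and the WT olaparib arrays spread widest for Col1a1, Col3a1, Col4a1, Col4a2 and Col6a2.

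Of the 10 fibrillar members, 6 were above vehicle with olaparib in WT and 4 in BRCA1+/-, with median differences of 0.06 and -0.05. Col5a1 and Col5a2 encode type V chains, which set fibril diameter, and their olaparib differences in WT were -0.23 and 0.25. Col2a1, the cartilage collagen, was well above background on only 8 arrays, none of them WT vehicle. It met the background rule only through WT olaparib and BRCA1+/- vehicle, so the rule favours high values of Col2a1 in those groups. WT olaparib, with 3 arrays above background, was at least 1.47-fold higher than the background bound of WT vehicle, and the limma adjusted p was 0.964. The measured means of Col2a1 differed by 0.65 on the log2 scale there and by -0.87 between genotypes with olaparib. The second of these values was -0.19 with a normexp background. Col11a2, a type XI chain, differed by -0.58 (95% interval -1.87 to 0.71) with olaparib in BRCA1+/-. The probes of Col2a1 and Col11a2 were dim, with SDs within groups of 0.68 and 0.92. Those of Col1a1, Col1a2 and Col3a1 were 0.29 to 0.56, so the larger estimates do not show that these 2 genes differed more.

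Col4a1 and Col4a2 encode the chains of the common type IV network, and they are transcribed in opposite directions from a shared promoter. In the GRCr8 assembly their start sites lie 77 bases apart on chromosome 16. The bases between the 2 starts are printed because the paired transcripts are compared below, as the plus strand of chr16:84885521-84885596 from RefSeq, with the only match to the GC-box letters GGGCGG on either strand in capitals.
Col4a1/Col4a2: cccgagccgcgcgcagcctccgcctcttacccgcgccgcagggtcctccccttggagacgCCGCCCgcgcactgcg
Promoter windows of 300 bases were found for 30 of the 38 genes. GGGCGG was present on either strand in 18 of the 30, against 33.1% of all windows, and CCAAT in 9 of the 30, against 37.5% of all windows. The windows of Col4a1 and Col4a2 overlap by 176 bases. These are matches of letters, and binding was not measured.

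The log2 signals of Col4a1 were 5.16, 4.49, 4.89 and 5.0 in WT vehicle and 4.17, 5.27, 3.11 and 5.45 in WT olaparib. They were 5.30, 4.66, 3.88 and 5.12 in BRCA1+/- vehicle and 5.08, 4.95, 3.99 and 4.85 in BRCA1+/- olaparib. Replicate 3 was the lowest array in each group other than WT vehicle. Col4a2 had log2 signals of 2.01, 1.24, 0.84 and 3.05 in WT vehicle, 0.98, 2.12, 0.18 and 2.25 in WT olaparib, 2.13, 1.33, 1.03 and 1.81 in BRCA1+/- vehicle, and 1.92, 1.56, 0.80 and 1.94 in BRCA1+/- olaparib. In Col4a2, replicate 3 was the lowest array in all 4 groups. Replicate 3 of every group lay in row 1 of slide 2. The mean level of the 7 endothelial markers was lowest on WT olaparib 3, WT olaparib 1, BRCA1+/- vehicle 3 and BRCA1+/- olaparib 3, at 1.35, 1.78, 1.84 and 2.06, within a range of 1.35 to 2.97. Those were also the 4 lowest arrays of Col4a1, but not of Col4a2. In WT vehicle, replicate 3 had the highest endothelial level of its group (2.77) and the lowest Col4a2. Replicate 4 of WT vehicle had the lowest endothelial level of its group (2.11) and the highest Col4a2 of the 16 arrays. The part of endothelial content, or of the place on the slide, in the type IV values was not tested.

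The minor type IV chains form other networks, such as that of the kidney glomerulus. Their differences between BRCA1+/- and WT with vehicle were all above 0, where 42.2% of all genes were. That of Col4a6 was 0.70 (95% interval -0.12 to 1.52, limma adjusted p = 0.862). The Col4a6 probe printed above gave 0.0025 for this difference, and the mean of all probes of the gene 0.35. All 6 type IV genes were lower with olaparib in BRCA1+/-, with a median of -0.24, against 0.02 and 53.2% above 0 for all genes. The lowest adjusted p among them was 1.0, and 3 of the 6 were lower with olaparib in WT.

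Chains that share a molecule were compared across the 16 arrays, in 9 pairs, with permutation tests of 100000 resamples and adjusted p-values over the pairs. Col4a1 and Col4a2 gave r = 0.82 and rho = 0.85 (permutation p = 8e-05 for r and 0.00014 for rho, adjusted p = 0.00072 and 0.00126). Without WT olaparib 3 and BRCA1+/- vehicle 3, the arrays farthest from the median of Col4a1, r was 0.73, and within the slides it was 0.98 and 0.78. Col6a1 and Col6a2, type VI chains, gave r = 0.70 and rho = 0.69 (permutation p = 0.00284 and 0.00431, adjusted p = 0.0128 and 0.0129), with 0.65 without the 2 farthest arrays and 0.63 and 0.77 within slides. Col4a3 and Col4a4, whose starts lie 413 bases apart on chromosome 9, gave r = 0.66 and rho = 0.68 (permutation p = 0.00515 and 0.00427, adjusted p = 0.0154 and 0.0129), with 0.77 without the 2 farthest arrays and 0.73 and 0.65 within slides. These 3 pairs passed on both measures.

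For the type I pair, r was higher within each slide than over the pooled arrays, and the difference was not tested. Col1a1 and Col1a2 gave a pooled r of 0.55 (permutation p = 0.0269, adjusted p = 0.0553) and a rho of 0.64 (permutation p = 0.00924, adjusted p = 0.0208). Within slide 1 r was 0.89 and within slide 2 it was 0.91. Without WT olaparib 4 and WT olaparib 2, the arrays farthest from the median of Col1a1, r was 0.57. With the group in the fit, Col1a1 was lower on slide 2 by -0.43 ± 0.25 (SE) and Col1a2 higher by 0.20 ± 0.14 (SE). Neither slide difference passed (adjusted p = 0.314 and 0.419), and none of the 38 collagen genes passed between slides, where 7.91% of all genes did.

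Col5a1 and Col5a2 gave r = 0.54 and rho = 0.61 (permutation p = 0.0307 and 0.0126, adjusted p = 0.0553 and 0.0227), with 0.72 and 0.57 within slides and 0.75 without the 2 farthest arrays. The other 4 pairs had adjusted p above 0.05 on both measures, with r of 0.49 for Col4a5 and Col4a6, 0.47 for Col8a1 and Col8a2, 0.34 for Col6a1 and Col6a3 and 0.15 for Col11a1 and Col11a2. As a description, the median r over all 703 pairs of collagen genes was 0.075, with quartiles of -0.22 and 0.41, over the same arrays and scaling.

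**Figure D2:**
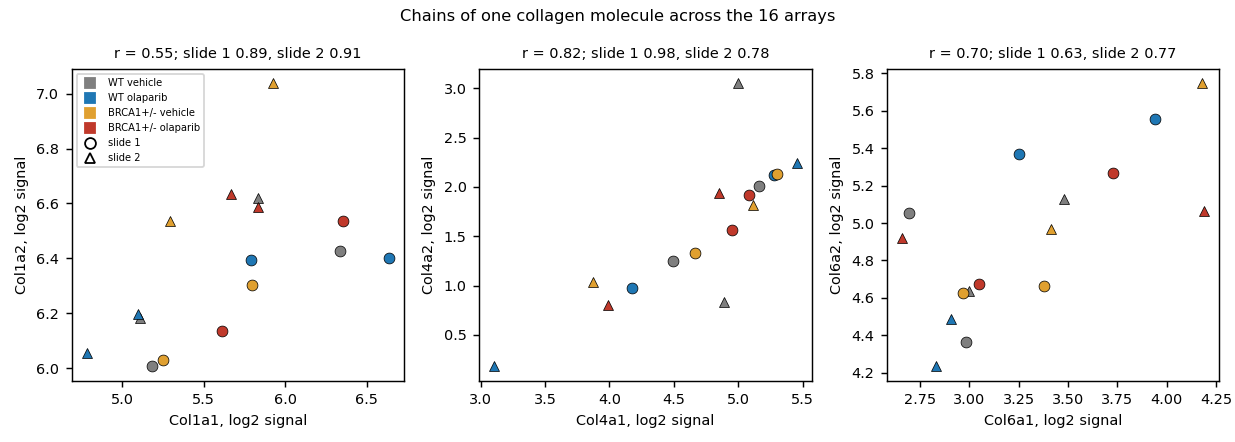
Log2 signals of both chains on each of the 16 arrays for the type I, type IV and type VI pairs. Colours are groups, circles slide 1 and triangles slide 2; r is 0.55, 0.82 and 0.70, and in the type I panel r is 0.89 within slide 1 and 0.91 within slide 2.

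Type VI genes follow. Col6a3, the longest chain of type VI and the member of its class with the highest mean, had log2 signals of 5.67, 4.86, 4.90 and 5.16 in WT vehicle, 4.86, 5.92, 4.54 and 4.43 in WT olaparib, 5.11, 5.29, 5.03 and 5.07 in BRCA1+/- vehicle, and 5.72, 5.24, 5.32 and 5.32 in BRCA1+/- olaparib. With olaparib, BRCA1+/- was above WT by 0.46 (95% interval -0.14 to 1.07, adjusted p = 1.0). In all, 4 probes report on this gene, and their correlation with the probe used was 0.81, 0.48 and -0.05. The difference between genotypes with olaparib was 0.090 on slide 1 and 0.83 on slide 2, and 0.20 with the mean of all probes. With that mean the olaparib difference in BRCA1+/- turned from 0.27 to -0.02.

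All 7 genes of the type VI and VII group were higher in BRCA1+/- than in WT over both treatments, with a median difference of 0.31 and an adjusted p of 1.0 for each, where 45.5% of all genes were above 0. That of Col7a1 turned from 0.59 to -0.30 without the 6 arrays described in the next paragraph. With vehicle, 6 of the 7 were higher (median 0.45), where 42.2% of all genes were. With olaparib, 4 of the 7 were higher (median 0.07), where 53.2% of all genes were. Col6a5, a chain that can take the place of Col6a3, contributed the largest value of the group with vehicle. It had log2 signals of -1.12, -1.89, 0.26 and -1.73 in WT vehicle and -0.51, 0.07, 2.28 and 0.80 in BRCA1+/- vehicle, and the groups overlapped. The difference was 1.78 ± 0.79 (SE; limma adjusted p = 0.862, exact two-sided permutation p = 0.0857), and a second probe gave 2.17. In the olaparib groups its signals were 2.07, 0.03, 0.64 and -1.57 in WT and -0.82, -0.49, 1.5 and -0.81 in BRCA1+/-. The 4 highest of its 16 arrays were among the 6 with oviduct and ciliated epithelium marker signal above its mean, and the BRCA1+/- minus WT difference with vehicle was 0.90 without those 6 arrays.

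Those 6 arrays were WT olaparib 1 and 3, BRCA1+/- vehicle 3 and 4, and BRCA1+/- olaparib 3 and 4. In both BRCA1+/- groups these are all the arrays of slide 2, so high oviduct signal and slide cannot be told apart there. Leaving them out keeps only slide 1 in those groups, while WT vehicle loses no array. Of 10 oviduct and ciliated epithelium markers 9 were measured, and their mean level ran from -2.06 to -1.47 in WT vehicle, -1.13 to 3.48 in WT olaparib, -2.09 to 3.57 in BRCA1+/- vehicle and -1.47 to 2.69 in BRCA1+/- olaparib. Ovgp1 was the marker not tested. The 4 arrays lowest in Col4a1 were among these 6. The correlation of Col4a1 with Col4a2 was 0.97 within these 6 arrays and 0.59 within the other 10, and that of Col1a1 with Col1a2 was 0.69 and 0.78. The 6 measured fat pad markers of 8 ran from -5.55 to -2.21, -4.76 to 1.99, -3.10 to -0.87 and -3.22 to -1.71 in the same order of groups. The 8 stromal and theca fibroblast markers varied less, from 0.59 to 1.07, 0.11 to 1.00, 0.43 to 0.99 and 0.58 to 0.98. The lowest of these, WT olaparib 4, was also the lowest array for Col1a1, Col5a2, Col6a3, Col6a6, Col8a2 and Col16a1, and the highest for Col2a1, Col4a1 and Col13a1. The part of other tissue in the collagen values was not tested.

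Col9a2, a chain of the cartilage fibril-associated type IX, was dim in most ovaries. Its log2 signals were -4.64, -6.61, -5.06 and -5.79 in WT vehicle, -0.61, -4.80, -1.36 and -5.82 in WT olaparib, -6.14, -6.34, -1.02 and -3.95 in BRCA1+/- vehicle, and -4.92, -7.09, -2.69 and -3.48 in BRCA1+/- olaparib. Its 6 highest values were the 6 arrays with high oviduct marker signal, and it was above background on 9 arrays in all. The olaparib difference over both genotypes was 1.1 (95% interval -0.93 to 3.12), and 0.22 without those arrays. Col9a2 met the background rule only through WT olaparib and BRCA1+/- olaparib, so the rule favours a high olaparib value of this gene. Col6a4, Col6a5 and Col6a6 had 5 of those 6 arrays among their 6 highest.

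Col7a1 encodes the anchoring fibrils that fasten epithelia to connective tissue. It had log2 signals of -1.72, -1.21, -1.27 and -0.39 in WT vehicle and -2.37, -1.14, -4.42 and -1.18 in WT olaparib, so that 1 array, WT olaparib 3, stood far below the rest. The difference in WT was -1.13 (95% interval -2.52 to 0.27), and -0.41 without that array. It was -0.29 on slide 1 and -1.97 on slide 2, and -0.012 without the arrays of high oviduct signal. Col20a1, a fibril-associated collagen, was also lowest on WT olaparib 3, at -1.03 against 1.59 to 3.69 on the other 15 arrays. The 3 further probes of Col20a1 had correlations of 0.94 to 0.99 with the probe used.

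Col17a1 is a transmembrane collagen of hemidesmosomes, the junctions that hold epithelial cells to their basement membrane. It had the smallest p of the collagen genes in 4 comparisons. Its log2 signals were -2.84, -2.38, -3.36 and -2.88 in WT vehicle, -3.78, -3.02, -3.51 and -4.90 in WT olaparib, -4.28, -3.94, -5.02 and -3.95 in BRCA1+/- vehicle, and -2.56, -3.67, -4.20 and -2.59 in BRCA1+/- olaparib. WT vehicle and BRCA1+/- vehicle did not overlap, and the other groups compared did. With vehicle, BRCA1+/- was below WT by -1.43 ± 0.44 (SE; limma adjusted p = 0.862; exact two-sided permutation p = 0.0286, the smallest that 4 against 4 can give). The olaparib difference was -0.94 in WT (exact permutation p = 0.0571) and 1.04 in BRCA1+/- (exact permutation p = 0.0857), and the interaction was 1.98 ± 0.62 (SE; limma adjusted p = 0.968).

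Col17a1 was the single gene (1 of 38) whose groups did not overlap between BRCA1+/- and WT with vehicle, where 3.44% of all genes did not. None of the 38 stood apart in the olaparib comparison in WT (1.16% of all genes), in BRCA1+/- (1.11%) or between genotypes with olaparib (0.583%). The difference with vehicle was -1.5 on slide 1 and -1.37 on slide 2, and -1.24 without the 6 arrays of high oviduct signal. The probe was dim, and with a normexp background the difference was -0.54 and the interaction 0.68. The means of the 7 surface epithelium and mesothelium markers lay between -0.36 and 1.44 in WT vehicle and between 0.22 and 2.75 in BRCA1+/- vehicle.

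**Figure D3:**
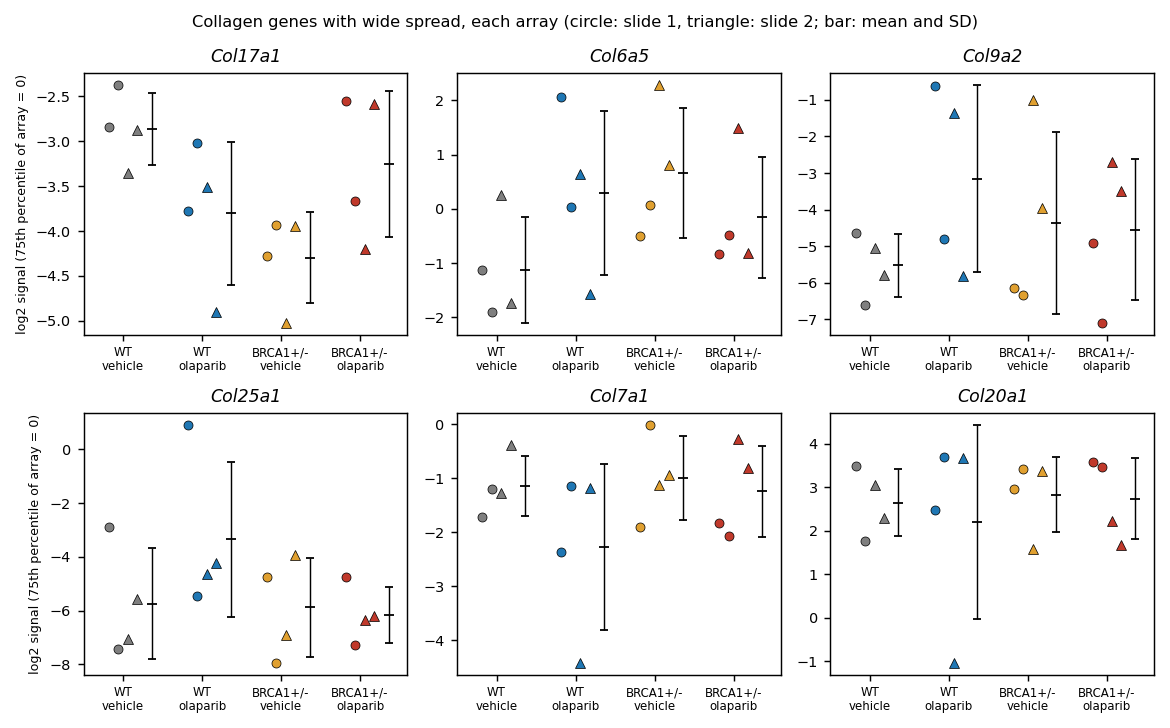
Log2 signal of 6 collagen genes with wide spread on each array, by group. Circles are slide 1, triangles slide 2, and the bar is the mean and SD (n = 4). Col17a1 separates WT vehicle from BRCA1+/- vehicle, and single arrays stand far out for Col25a1 (WT olaparib 1, at 0.91), Col7a1 and Col20a1 (WT olaparib 3).

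Among the remaining classes, the members with the highest mean were Col18a1, Col16a1, Col8a1, Col13a1 and Col26a1. Col18a1, a basement membrane collagen that releases endostatin, had log2 signals of 4.16, 4.33, 3.71 and 5.16 in WT vehicle, 4.40, 4.27, 3.25 and 4.63 in WT olaparib, 4.50, 3.17, 4.14 and 4.01 in BRCA1+/- vehicle, and 4.07, 3.78, 3.32 and 4.55 in BRCA1+/- olaparib. Col16a1, which sits on fibril surfaces, had 3.21, 3.16, 2.80 and 3.25 in WT vehicle, 3.66, 3.73, 3.02 and 2.02 in WT olaparib, 2.67, 2.96, 3.12 and 3.00 in BRCA1+/- vehicle, and 3.27, 3.03, 2.98 and 3.57 in BRCA1+/- olaparib. The groups overlapped for both genes.

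Col8a1, a short-chain collagen of vessel walls, had log2 signals of -0.25, -1.92, -2.08 and 0.20 in WT vehicle, -1.1, 0.47, -2.33 and -1.48 in WT olaparib, -0.93, -1.94, -1.82 and -0.91 in BRCA1+/- vehicle, and 0.33, -1.29, -1.55 and -0.50 in BRCA1+/- olaparib. Col13a1, a transmembrane collagen of cell contacts, had -1.03, -1.13, -0.72 and -1.22 in WT vehicle and -2.08, -1.25, -2.85 and 0.10 in WT olaparib. Its BRCA1+/- arrays gave -0.93, -0.22, -1.86 and -0.71 with vehicle and -1.47, -0.46, -0.87 and -0.89 with olaparib. WT olaparib held the widest spread of Col13a1, with an SD of 1.26 against 0.22 in WT vehicle.

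Col26a1, a collagen known from testis and ovary, had log2 signals of -4.01, -5.54, -4.06 and -4.88 in WT vehicle, -2.81, -5.09, -2.49 and -4.08 in WT olaparib, -4.06, -3.55, -2.97 and -3.84 in BRCA1+/- vehicle, and -5.22, -3.54, -3.31 and -4.25 in BRCA1+/- olaparib. Its olaparib difference in WT was 1.00 (95% interval -0.20 to 2.21), and 0.04 without the arrays of high oviduct signal. Col25a1, a transmembrane collagen of nerve and muscle, was above background on 7 arrays and stood at 0.91 on WT olaparib 1, against -7.94 to -2.90 on the others. Of those 7 arrays 3 were WT olaparib, the only group through which it met the background rule. That rule therefore favours a high WT olaparib value of this gene. WT olaparib 1 also held the highest fat pad marker level of the 16 arrays, 1.99. The olaparib difference of Col25a1 in WT was 2.40, and 0.98 without WT olaparib 1, 0.91 without the arrays of high oviduct signal and 0.79 with a normexp background. That of Col6a5 was 1.41, and 0.35 without the arrays of high oviduct signal.

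**Figure D4:**
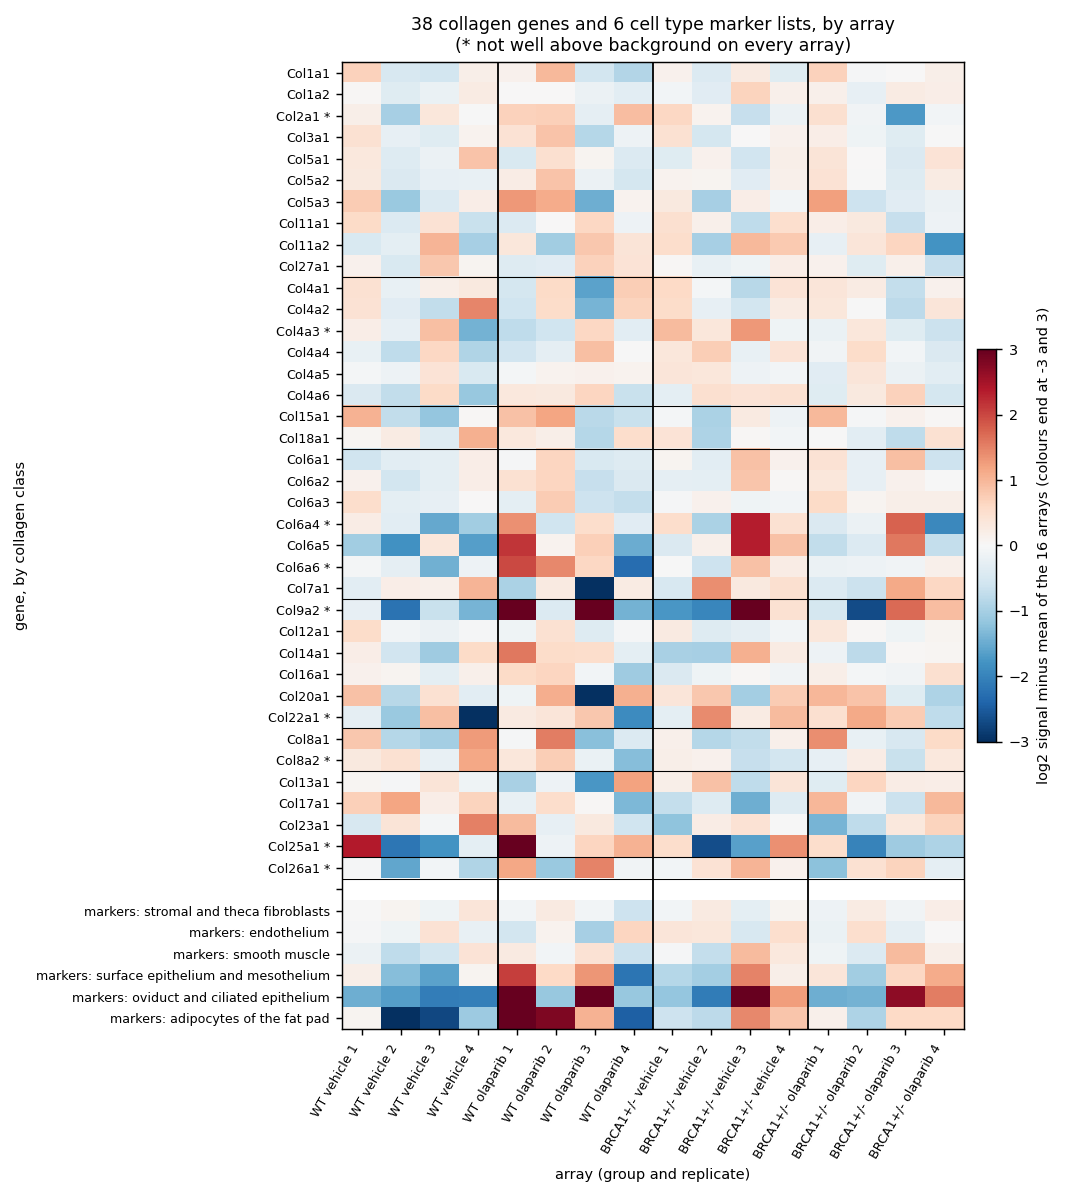
Log2 signal minus the mean of the 16 arrays for the 38 collagen genes, by class, and for the mean level of 6 cell type marker lists below them. Columns are arrays by group, and an asterisk marks the 9 genes not well above background on every array. Replicates within a group differ as much as groups do, and Col9a2 follows the oviduct marker row.

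By comparison, few collagen genes reached an unadjusted p under 0.05, and the shares stand beside those of all genes. For olaparib in WT this was 1 of 38 (Col17a1), against 4.33% of all genes, and 20 of 38 differences were above 0, against 39.2%. The median was 0.06 for collagen genes and -0.07 for all genes. Col25a1 (2.40), Col26a1 (1.00) and Col6a5 (1.41) had the smallest p among the higher genes, and Col17a1 (-0.94), Col7a1 (-1.13) and Col8a2 (-0.52) among the lower genes. Col25a1 met the background rule only through WT olaparib, so the rule favours its value here. For olaparib in BRCA1+/- it was 1 of 38, Col17a1 again, against 1.17%, and 12 of 38 differences were above 0, against 53.2%. The median was -0.08 for collagen genes and 0.02 for all genes. Col17a1 (1.04), Col8a1 (0.65) and Col6a3 (0.27) led upwards, and Col4a3 (-0.83), Col4a5 (-0.24) and Col6a5 (-0.82) downwards.

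Over both genotypes no collagen gene reached an unadjusted p under 0.05 with olaparib, against 1.32%, and 22 of 38 were above 0, against 45.6%. Col9a2 (1.1), Col15a1 (0.42) and Col25a1 (1.06) led upwards, and Col7a1 (-0.69), Col4a3 (-0.47) and Col13a1 (-0.25) downwards. Between BRCA1+/- and WT with vehicle 2 of 38 reached it, Col17a1 and Col6a5, against 5.5%, and 22 were above 0, against 42.2%. The median was 0.10 for collagen genes and -0.06 for all genes. Col6a5 (1.78), Col22a1 (1.47) and Col4a6 (0.70) led upwards, and Col17a1 (-1.43), Col8a2 (-0.66) and Col5a1 (-0.32) downwards. The value of Col22a1 was 0.75 without WT vehicle 4 and 0.21 with a normexp background. Col9a2 met the background rule only through the olaparib groups, and Col22a1 through every group but WT vehicle. The rule therefore favours these values of Col9a2 and Col22a1.

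Between genotypes with olaparib none of 38 reached it, against 0.915%, and 19 were above 0, against 53.2%. Col6a3 (0.46), Col7a1 (1.03) and Col17a1 (0.55) led upwards, and Col25a1 (-2.81), Col2a1 (-0.87) and Col14a1 (-0.80) downwards. Over both treatments none of 38 reached it, against 2.2%, and 21 were above 0, against 45.5%. Col22a1 (0.99), Col7a1 (0.59) and Col4a3 (0.40) led upwards, and Col25a1 (-1.47), Col17a1 (-0.44) and Col2a1 (-0.39) downwards. For the interaction it was 1 of 38, Col17a1, against 3.44%, and 17 were above 0, against 57.8%. Col17a1 (1.98), Col6a3 (0.49) and Col8a2 (0.67) led upwards, and Col6a5 (-2.23), Col26a1 (-1.48) and Col6a4 (-1.70) downwards. Col25a1 met the background rule only through WT olaparib, and Col6a4 only through BRCA1+/- vehicle. Col9a2 met it only through the olaparib groups, and Col2a1 only through WT olaparib and BRCA1+/- vehicle. Col22a1 met it through every group but WT vehicle. The rule therefore favours their values in comparisons that use those groups. Since these comparisons have groups in common, they are not independent.

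**Figure D5:**
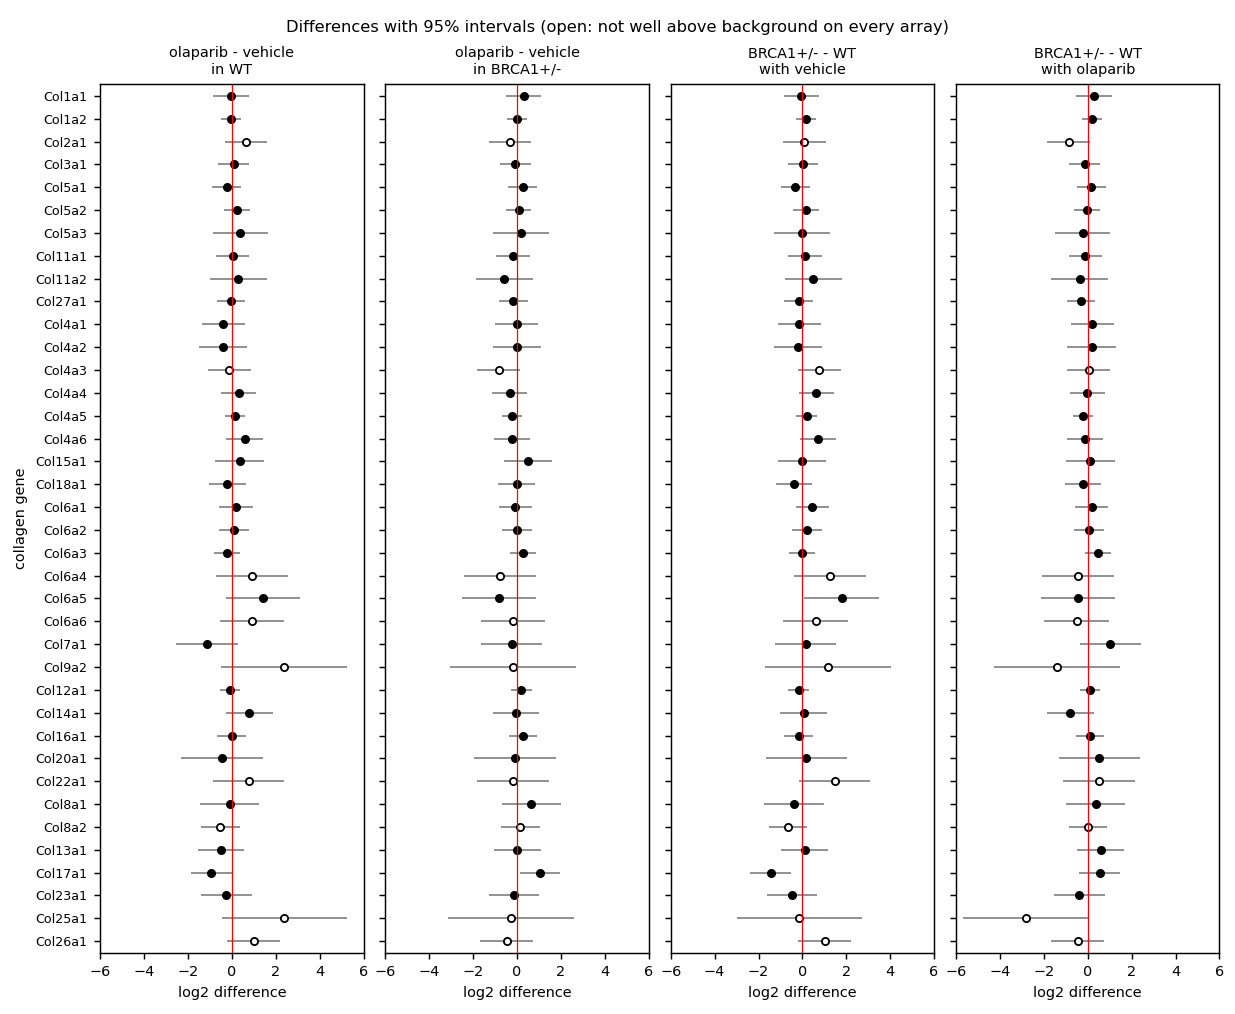
Log2 difference of each of the 38 collagen genes in 4 comparisons, with 95% intervals from limma. Open points are genes not well above background on every array. The intervals of the type I and III genes stay within -0.85 and 1.11, while dim genes such as Col9a2 and Col25a1 have intervals several units wide.

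Part of the width lay in the spread between samples of a group. The median SD within groups was 0.685 for the 38 collagen genes, 0.572 for the 29 that were above background on every array and 0.428 for all genes tested. Of the 22 further probes that passed the background rule, 17 had r above 0.5 with the probe used, over a range of -0.05 to 0.996, the highest being that of Col5a2.

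The genes that process, crosslink and bind collagen were listed by role, and none passed an adjusted p of 0.05 in any comparison. For folding and secretion 20 of 21 genes were tested, and P4ha2, a prolyl hydroxylase subunit, differed by -1.40 between BRCA1+/- and WT with vehicle (limma adjusted p = 0.862). For procollagen cleavage and crosslinking 12 of 16 were tested. Adamts3, a protease that removes the amino propeptide, differed by -2.04 ± 0.50 (SE) with olaparib in WT (limma adjusted p = 0.964). Loxl4, a lysyl oxidase of the crosslinking family, differed by -1.85 ± 0.54 (SE) between genotypes with vehicle (limma adjusted p = 0.862), and Lox by 0.58 over both treatments.

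Among 26 fibril-associated proteoglycans and glycoproteins, 1 was higher and 2 were lower at an unadjusted p under 0.05 between genotypes with vehicle, against 5.5% of all genes. Tnc, an adhesion-modulating glycoprotein, differed by -2.22, the elastic fibre protein Emilin1 by -0.77 and the microfibril protein Mfap5 by 1.18 (adjusted p = 0.862 for each). Of 18 basement membrane partners 15 were tested, and Pxdn, the enzyme that crosslinks type IV collagen, differed by 0.44 with olaparib in WT and by 0.41 between genotypes with vehicle. Nid2, which links type IV collagen to laminin, differed by -0.48 between genotypes over both treatments (limma adjusted p = 1.0), where the median of the 15 genes was -0.14. Of 11 receptors and uptake genes 9 were tested, and Ddr2, a receptor tyrosine kinase for fibrillar collagen, differed by 0.59 between genotypes over both treatments. All 18 genes of the TGF-beta list, an input to collagen transcription, were tested, and Tgfb2 differed by 1.48 between genotypes with vehicle and Ccn2 by 0.57 over both treatments.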

How the data were processed

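The authors' labels give total RNA from ovaries, Cy3 labelling and Agilent single-colour arrays, with Agilent Feature Extraction 10.7 per the submitters' processing notes and 10.7.1.1 and rat build rn4 per the file headers. The deposited processed signal, mean signal and local background are intensity values, the first background-subtracted within each array per the file headers. A deposited table of log2 values was found to equal this signal on the log2 scale, less a constant per array. Flagged spots left 45586 probes. Spots of a probe were averaged, the log2 75th percentile of the array was subtracted, and differences were fitted over 20227 genes with limma 3.58.1 in R 4.3.3 as 4 group means (12 residual and 2.43 prior degrees of freedom), with Benjamini-Hochberg adjustment. The fit was tested on simulated data. Exact permutation tests were two-sided. Arrays of the same replicate number shared a slide and its row. For the 4 pairs of the BRCA1+/- vehicle and olaparib groups their deviations from the group means correlated at 0.39 to 0.71. An alternative therefore took the replicate number as a block. That block covered all 4 groups, although pairs of other groups correlated as low as -0.44.

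Genes were named by transcript accession or symbol from a RefSeq table of GRCr8, which also gave promoters. Values in every array are given for Col1a1, Col1a2, Col3a1, Col4a1, Col4a2 and the member with the highest mean of each class. Other genes named are the 3 with the smallest p in each direction, and up to 3 per list. Col20a1, Col9a2 in each array, and the per-array values of Col17a1, Col6a5 and Col7a1 were added after their values were seen. Members and lists were chosen with earlier results of these data known. Alternatives were another background correction and normalization, the value table, filters, slides, the replicate block, all probes of a gene and arrays left out. P-values measure the spread between these samples, and 4 per group limits the precision.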

Additional observations from a re-analysis of the deposited data

Results flagged for a closer look

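A sample that stood far from the other 3 of its group was looked for in 152 groups of 4 arrays (38 genes in 4 groups), by its gap over the range of the group against Dixon's critical value at the 95% level. It was met 8 times, and chance gives about 1 in 20 groups. Col15a1 stood at 3.27 in BRCA1+/- olaparib 1, above 2.28 to 2.43 in the others. Col6a3 stood at 5.72 on that same array, above 5.24 to 5.32. Col4a5 stood at 0.94 in WT olaparib 1, below 1.11 to 1.13, and Col4a6 at 0.25 in BRCA1+/- vehicle 1, below 0.95 to 1.02. Col5a2 stood at 2.12 in BRCA1+/- vehicle 3, below 2.53 to 2.61. Col6a5 stood at 1.5 in BRCA1+/- olaparib 3, above -0.82 to -0.49, on an array of high oviduct marker signal. Col6a6 stood at -4.21 in WT vehicle 3, below -3.03 to -2.82, and at -2.61 in BRCA1+/- olaparib 4, above -2.92 to -2.87.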

How the results depend on the processing

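With 27 alternatives, 1 of them (leaving out the 6 arrays of high oviduct signal) chosen after seeing the data, no collagen gene was called in any comparison, and the lowest adjusted p of a collagen gene was 0.349. Over all genes, 1 gene was called with olaparib in BRCA1+/- and 1 between genotypes over both treatments when WT olaparib replicate 4 was left out, and the range over the arrays left out was 0 to 1 in both. Of the 42 single differences named by their p, 34 kept their sign in every alternative that gave them a value. Many alternatives could not turn a sign. In this balanced design the slide block, the replicate block and leaving out an array outside the groups compared do not change a difference. The filters gave the same values as the main fit, and the value table nearly the same. The count of 34 is therefore no measure of how firm the signs are.

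The signs that turned were those of Col13a1 with olaparib over both genotypes (0.028 without the arrays of high oviduct signal), Col15a1 in the same comparison (-0.083 on slide 2 alone), Col2a1 between genotypes over both treatments (0.13 on slide 1 alone) and Col6a3 with olaparib in BRCA1+/- (-0.024 with the mean of all probes). Col7a1 between genotypes with olaparib turned to -0.19 on slide 1 alone and -0.79 without the arrays of high oviduct signal, and over both treatments to -0.30 without those arrays. Col8a2 turned to 0.17 with olaparib in WT and to -0.33 in the interaction on slide 1 alone. The cause was not tested.

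Arrays with the same replicate number deviated from their group means with correlations from -0.44 to 0.71 over 24 pairs, 13 of them above 0.1. Between the BRCA1+/- groups all 4 pairs were above 0.1, and between no other groups were all 4. With the replicate block 0 collagen genes were called in each comparison, as without it, and 0 of all genes. A dim signal limits Col2a1, Col4a3, Col6a4, Col6a6, Col8a2, Col9a2, Col22a1, Col25a1 and Col26a1, which were not above background on every array; with a filter that asks for all 16 arrays these 9 have no value.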
